A study of Homo sapiens with 4 samples.

Results

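Along much of the genome accessible sites stand alone, and in some stretches they lie close together. Dense distal chains are such stretches: neighbouring autosomal ATAC-seq peaks with no more than 12.5 kb between the end of each and the start of the next, 6 or more peaks in a row, of which at least 50% carried no gene symbol in the authors' deposited table. The authors' deposited table gave 367 such chains out of 38802 autosomal runs of 1 or more peaks. They held 2656 of the 60875 peaks of that table, or 4.36%. The chains were chosen by the called positions of peaks and by their symbols. The rule used no fold changes, though it was chosen with earlier results of these data known. Accordingly, chain lengths, gaps and the share of peaks without a symbol are given as a description only.

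The assay, ATAC-seq, inserts sequencing adapters into open chromatin with the transposase Tn5. It was run on 4 libraries of day 6 cardiac progenitor cells made from WTC11, an established line of human induced pluripotent cells of wild-type genotype, with 50000 to 100000 cells each. In 2 libraries the progenitors came from differentiations that ended in a high purity of cardiomyocytes, and in 2 from differentiations that ended in a low purity. All 4 share the line, the day and the protocol, and 1 line limits what they stand for. The study asked which features of the progenitors go with the later outcome. The values are the authors' own comparison of the high and the low libraries per peak: a mean normalized count over all libraries, a log2 fold change with its standard error (SE) and an adjusted p. No value per library was analysed here. That leaves library depth unknown, and p-values measure only the spread between these libraries.

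The marking Up goes with a negative log2 fold change and the marking Down with a positive one, with 0 exceptions in the authors' deposited table. No source used here states which outcome group stands on top of the fold change. Up side below therefore means a negative value and Down side a positive one, and neither is assigned to high or low purity. A peak is called changed where the authors' deposited table gives an adjusted p under 0.05. In bulk samples, more cells with an open site and a more open site per cell cannot be told apart. Peaks lay in or within 10 kb of all 8 cardiac genes looked up. There were 13 at GATA4, 5 at MEF2C, 3 each at TBX5, ISL1, HAND2 and TNNT2, 2 at MYH6 and 1 at NKX2-5. No like count was taken over other genes, so these counts cannot check which cells the libraries held.

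Open sites away from promoters are often enhancers, stretches bound by transcription factors that raise transcription of a gene nearby or farther off. In developing heart tissue many enhancers are bound by GATA, NKX2, MEF2 and TBX factors. Where enhancers stand close together near genes that define a cell's identity, they are often treated as 1 unit and called clustered or super-enhancers, which are usually ranked by histone or cofactor signal and joined over the gap length used here. No such signal was part of this comparison, so the chains are dense runs of open sites and were not ranked as enhancers. Dense runs of peaks can also be called where many genes crowd together, and in sequence present in many copies, such as that next to centromeres or in the ribosomal RNA arrays on the short arms of the acrocentric chromosomes.

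Although most chain peaks carried no symbol, 351 of the 2656 peaks overlapped a promoter window, the stretch from 250 bases before to 50 bases after the start of a protein-coding gene. Of these, 6 were changed in the authors' deposited table (1.71%), against 9.30% of all chain peaks, 2.03% of symbol-bearing peaks outside chains and 6.0% of all peaks of the table. The share was thus below that of all peaks and near that of symbol-bearing peaks outside chains. Of symbol-bearing peaks in chains with a protein-coding gene within 100 kb, 4.66% were changed. Overlap with a promoter window and a symbol in the table are different measures. Windows of 4 genes with a changed promoter peak are shown, as places where such a peak can be read beside a gene's own start. They were chosen after their values were seen: on the Up side those that the peak covers over all 300 bases, and on the Down side the window of the peak with the lower adjusted p. Sequences are RefSeq's (GRCh38.p14), 5′ to 3′ on the gene's strand. Capitals mark matches, on either strand, to any of 6 motifs. These were the GATA letters AGATAA, the forkhead letters TGTTTAC, the NKX2 letters CACTTNA, the AP-1 letters TGANTCA, the TEAD letters GGAATG and the GC box GGGCGG, none of which overlap in the windows shown.
ELF3: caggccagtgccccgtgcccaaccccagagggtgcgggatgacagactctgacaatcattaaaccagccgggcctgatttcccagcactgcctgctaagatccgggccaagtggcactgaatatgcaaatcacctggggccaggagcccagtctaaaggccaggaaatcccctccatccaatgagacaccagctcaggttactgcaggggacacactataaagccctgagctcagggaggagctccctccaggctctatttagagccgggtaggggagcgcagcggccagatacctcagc
PTPN6: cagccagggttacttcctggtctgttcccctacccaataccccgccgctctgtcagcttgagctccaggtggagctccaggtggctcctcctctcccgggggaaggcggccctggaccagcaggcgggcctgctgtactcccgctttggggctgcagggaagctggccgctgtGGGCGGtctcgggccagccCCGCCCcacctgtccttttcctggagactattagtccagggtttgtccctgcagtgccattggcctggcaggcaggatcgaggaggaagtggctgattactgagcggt
TMC4: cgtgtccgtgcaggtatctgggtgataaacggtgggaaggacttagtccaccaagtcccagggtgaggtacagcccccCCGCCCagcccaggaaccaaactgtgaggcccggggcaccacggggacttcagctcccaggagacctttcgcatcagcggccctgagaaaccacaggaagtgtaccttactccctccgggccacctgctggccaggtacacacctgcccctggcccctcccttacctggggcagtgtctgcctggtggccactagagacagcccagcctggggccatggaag
MEIS3: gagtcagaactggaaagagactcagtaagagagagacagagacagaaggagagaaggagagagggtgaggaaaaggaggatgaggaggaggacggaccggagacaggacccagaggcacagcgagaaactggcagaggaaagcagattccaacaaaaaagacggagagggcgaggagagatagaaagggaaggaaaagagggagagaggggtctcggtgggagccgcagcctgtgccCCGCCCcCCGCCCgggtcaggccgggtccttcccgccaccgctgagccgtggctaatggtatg

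The ELF3 window (chr1:202010337-202010636, plus strand) belongs to an ETS-family factor of epithelial cells. Its peak had a log2 fold change of −0.81 ± 0.26 (SE) and an adjusted p of 0.0342 in the authors' deposited table, where it carries the symbol of the antisense gene ELF3-AS1. PTPN6 (chr12:6946327-6946626, plus strand) encodes the phosphatase SHP-1, and its peak had −0.72 ± 0.21 and an adjusted p of 0.0148 in the authors' deposited table. TMC4 (chr19:54173111-54173410, minus strand), of the transmembrane channel-like family, had −1.32 ± 0.36 and an adjusted p of 0.00845 in the authors' deposited table. On the Down side, MEIS3 (chr19:47422184-47422483, minus strand), a TALE homeobox factor, had 1.17 ± 0.31 and an adjusted p of 0.0069 in the authors' deposited table. The remaining 2 promoter peaks, at TSPAN14 (−1.28 ± 0.40) and EMP3 (0.90 ± 0.30), had adjusted p-values of 0.0275 and 0.0483 in the authors' deposited table. The promoter peaks thus lay on both sides, 4 Up and 2 Down. Of the motifs searched, only the GC box was found in the windows shown, in PTPN6, TMC4 and MEIS3. No match was found in ELF3, and 56.6% of 21156 promoters hold a GC box. The TSPAN14 window held a GC box and a TEAD match, letters present in 12.2% of promoters. GATA, forkhead, NKX2 and AP-1 letters were in none of the 6 windows and in 7.89%, 2.86%, 8.71% and 6.08% of all promoters.

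The chains held 6 to 21 peaks with a median of 7. Of the 367, 183 had 6 peaks and 32 had 10 or more. They spanned 3.36 to 136 kb (median 35.4 kb), with a median gap of 5525 bp between neighbours. Altogether 79.8% of their peaks carried no symbol, and 111 chains carried none at all. Chromosome 1 held 53 chains, chromosome 17 held 32 and chromosome 19 held 29. The share of a chromosome's peaks that lay in chains ran from 0.74% on chromosome 13 to 9.44% on chromosome 19, a chromosome dense in genes. Chain peaks had a higher mean count than autosomal peaks outside chains, with medians of 68.9 and 47.0, and a smaller median SE, 0.34 against 0.40 log2 units.

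Distal by symbol did not mean far from genes. Of the 367 chains, 327 overlapped the body of a protein-coding gene, 159 of them 1 gene and 168 of them 2 or more. A further 29 lay between genes with 1 within 100 kb, and 11 had no protein-coding gene within 100 kb. The chains lay within 100 kb of 1904 of 19126 protein-coding genes (9.96%), and of 26 of 183 autosomal genes (14.2%) on 13 lists of lineage, muscle and signalling genes.

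The share of changed peaks was higher in the chains than in the table as a whole. In the chains, 247 of 2656 peaks were changed (9.30%), 118 Up (4.44%) and 129 Down (4.86%). Over all 60875 peaks 6.0% were changed, 2.36% Up and 3.64% Down. The Down side count rested on few chains: the 11 chains without a gene within 100 kb had 54 of their 90 peaks changed, 4 Up and 50 Down. The 356 chains with a gene had 193 of 2566 peaks changed (7.52%), 114 Up (4.44%) and 79 Down (3.08%). Peaks outside chains with a gene within 100 kb had 5.39% changed, 2.24% Up and 3.15% Down. Near genes, the excess over other peaks therefore lay on the Up side, and the Down side share was about that of other peaks. At an adjusted p under 0.01 the chains had 1.92% Up and 3.05% Down, beside 1.06% and 2.05% over all peaks (3.11% together). Under 0.1 they had 6.06% on each side, beside 3.60% Up and 4.77% Down over all peaks (8.37% together). By the authors' own marking they had 5.87% Up and 4.74% Down, beside 4.86% and 4.98% over all peaks (9.84% together).

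Mean count moved with membership in a chain, so the shares were also set beside those at like counts. The chains with a gene had 4.44% Up and 3.08% Down, against 2.68% and 3.93% at the shares of peaks outside chains in the same decile of mean count. Where the mean count was no lower than the median of the table, 8.83% of peaks in chains with a gene and 6.96% of peaks outside chains were changed. In both comparisons the outside peaks include those with no gene within 100 kb, of which 2.57% were Up and 6.77% Down. The 2 sets are therefore not matched for nearness to genes. Chains of exactly 6 peaks had 9.02% changed (5.83% Up, 3.19% Down), and 403 runs of 5 peaks, just short of the rule, had 7.64% (3.47% Up, 4.17% Down). All 32 chains of 10 or more peaks had 11.5% changed (2.56% Up, 8.95% Down), 45 peaks of which 17 lay in the 29 such chains with a gene. With a gene within 100 kb, chains of 6 peaks had 8.47% changed, and those of 10 or more had 4.74%. These differences in share were not tested.

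Peaks of 1 chain changed together only weakly, apart from a few chains. The intraclass correlation, the share of the variance of log2 fold change that lies between chains, was 0.177 over all chains, with a variance of 0.064 between chains and 0.297 within them. It was 0.0701 without the 7 chains that held 3 or more changed peaks on the Down side, which were chosen by those changes. In the 356 chains with a gene it was 0.0716 (0.023 between, 0.299 within). Shorter runs of 2 to 5 peaks with a gene had 0.107. The mean squared SE of a chain peak was 0.133, against the variance of 0.297 within chains. Part of the spread within chains is thus error of measurement, which can lower the intraclass correlation. Peaks of a chain share the same 4 libraries, so these values are descriptions and carry no p.

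How alike neighbouring peaks were depended on the gap between them. Under 1 kb apart, neighbours in chains with a gene had a Pearson correlation of fold change of 0.380 (318 neighbour pairs), and neighbours outside chains with a gene had 0.242 (3201 pairs). From 1 to 2.5 kb the values were 0.112 in chains with a gene and 0.110 outside. At 2.5 to 5 kb they were 0.008 and 0.108, and at 5 to 12.5 kb 0.051 and 0.080. Beyond the nearest kilobase, likeness in chains near genes was thus about equal to that elsewhere or lower. Neighbours outside chains 50 to 100 kb apart still had 0.031.

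**Figure D1:**
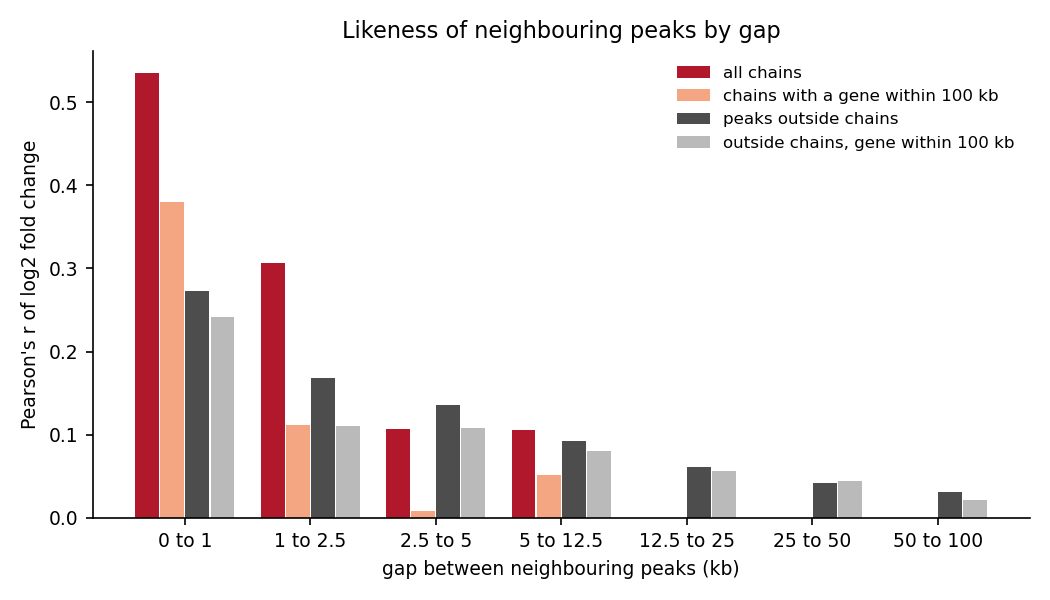
Pearson correlation of the log2 fold changes of neighbouring peaks (vertical axis) by the gap between them in kb (horizontal axis), for all chains, chains with a gene within 100 kb, peaks outside chains, and those outside with a gene. Bars for chains end at 12.5 kb by the rule; in chains with a gene the bar stands at 0.380 under 1 kb and at 0.051 for 5 to 12.5 kb.

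Counting changed peaks gave the same picture. In 201 of the 367 chains no peak was changed, in 126 exactly 1, in 26 exactly 2 and in 14 at least 3. Of 212 pairs of changed peaks in a chain, 197 lay on the same side (92.9%), where the split of changed chain peaks into sides gives 50.1%. The 7 Down side chains supplied 165 of these pairs. All 165 are on the same side by definition, since only chains with no Up side peak were picked. Without these 7 chains, 32 of 47 pairs were on the same side (68.1%), with 51.7% from their split into sides. In the chains with a gene 30 of 43 pairs were on the same side (69.8%), with 51.6% from their split into sides. Direct neighbours were no exception: of 14 such pairs 9 were on the same side. Pairs that share a peak are not independent, and these shares were not tested.

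Exactly 7 chains held 3 or more changed peaks on the Down side and none on the Up side. None had a protein-coding gene within 100 kb: the nearest gene lay 182 to 722 kb away, and 4 of the 7 lay within 2 Mb of the longest gene-free stretch of their chromosome. In these chains 48 of 63 peaks were changed and all 63 had a positive fold change, so that they held 37.2% of all Down side peaks in chains. Their median mean counts ran from 220 to 1420, where the highest of any chain with a gene was 236. The part that this high signal, or reads from sequence in many copies, has in the fold changes was not tested.

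**Figure D2:**
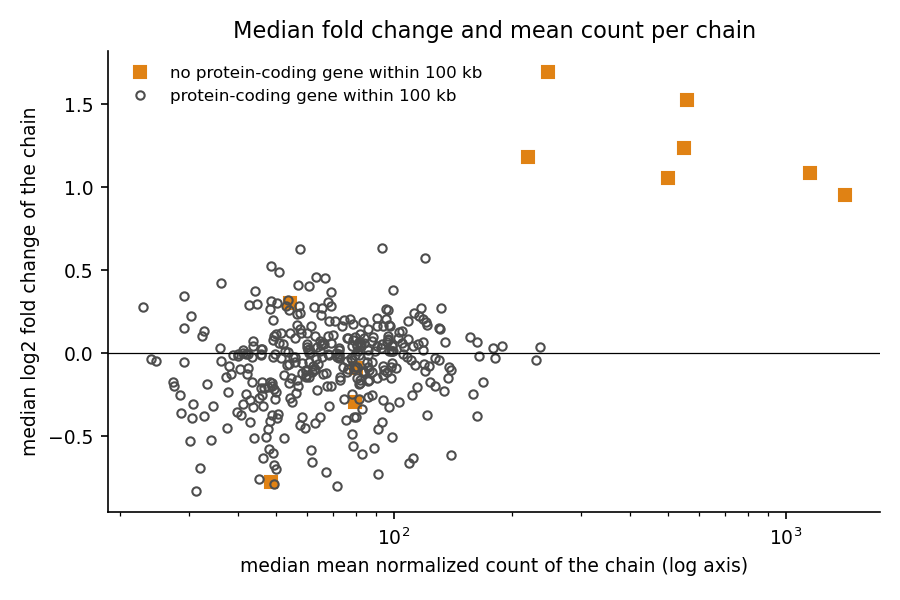
Median log2 fold change of each of the 367 chains (vertical axis) against its median mean normalized count (horizontal log axis), squares for the 11 chains without a protein-coding gene within 100 kb and circles for the rest. The 7 Down side chains stand apart at the upper right, with median counts of 220 to 1420, while no chain with a gene has a median above 0.63.

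In 2 of them every peak was changed. The chain at chr20:31052011-31075990, 182 kb from DEFB115, a beta-defensin gene, had 10 peaks of which all were changed, with fold changes of 1.17, 1.24, 1.27, 1.25, 1.20, 1.33, 1.11, 1.22, 1.43 and 0.97 along the chain in the authors' deposited table. At chr17:21960237-21988912, nearest to KCNJ18, an inward-rectifier potassium channel gene, all 11 peaks were changed, with values from 0.92 to 1.32 in the authors' deposited table. The peaks of both chains thus lay on the same side and within a narrow range. In no chain with a gene were all peaks changed.

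The chain at chr10:38872625-38920343, nearest to the zinc finger gene ZNF37A, had 7 of 9 peaks changed and a median of 1.18. Its 2 peaks that were not changed had 1.93 and 1.5, both above 6 of the 7 changed ones, in the authors' deposited table. At chr16:34572890-34595635, nearest to LOC124903767, 5 of 8 peaks were changed, with values of 1.30 to 1.64 over all 8 peaks in the authors' deposited table. The chain at chr1:143244922-143275957, 626429 bp from the histone gene H3-7, had 5 of 8 changed and the highest median of any chain, with values from 1.33 to 1.87 in the authors' deposited table. In these chains the fold changes of called and uncalled peaks overlapped.

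Both remaining Down side chains lie on the short arm of chromosome 21. The peak that opens the chain at chr21:8208750-8234706 carries the symbol RNA45SN2 in the authors' deposited table, a copy of the 45S precursor of ribosomal RNA, which is present in many near-identical copies. Its own value, 0.79 ± 0.32, missed the threshold with an adjusted p of 0.134 in the authors' deposited table, and 3 of the other 5 peaks were changed. The second, at chr21:8433995-8465589, had 7 of 11 changed, with values from 0.89 to 1.46 in the authors' deposited table. Counts over such copies are uncertain, since a read can fit several of them and no source used here says how such reads were handled.

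**Figure D3:**
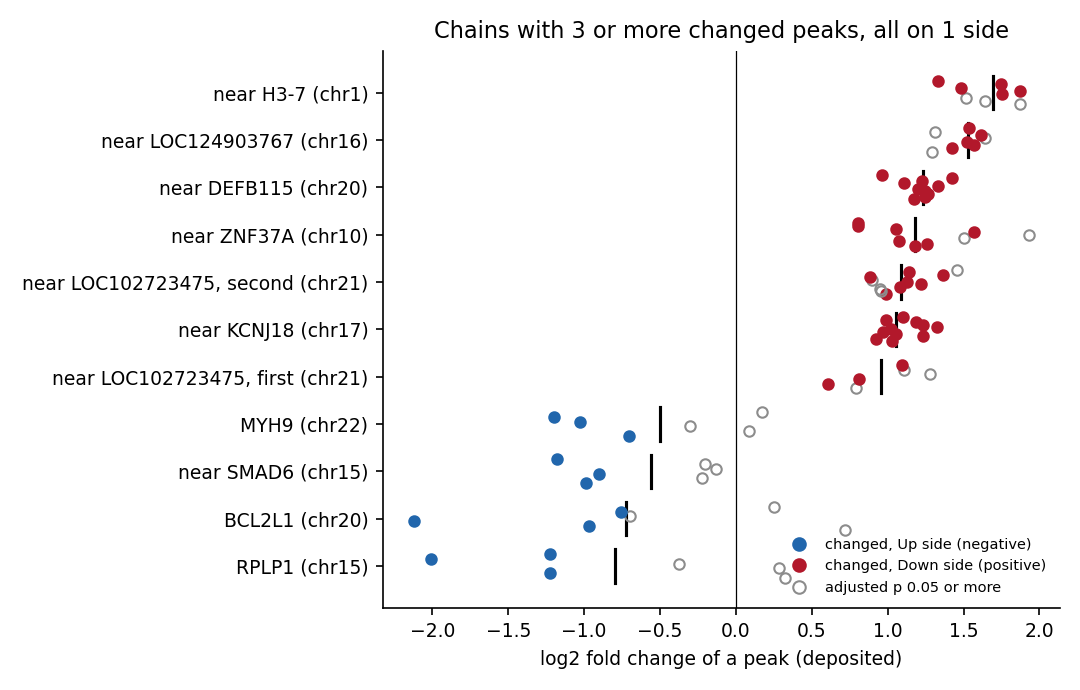
Log2 fold change of every peak (points, horizontal axis) in the 11 chains with 3 or more changed peaks, all on 1 side; filled points are changed peaks, open points are not, and bars mark chain medians. The 7 Down side chains lie wholly to the right of 0, and of the 4 Up side chains only the one near SMAD6 has every peak on its side.

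On the Up side 4 chains held 3 changed peaks and no Down side peak, each with 6 peaks and each near a gene. The chain at chr15:66834920-66866771 lies 52071 bp from SMAD6, an inhibitory SMAD that damps BMP signalling, with no other protein-coding gene within 100 kb. Its fold changes were −0.99, −0.22, −0.90, −0.13, −0.20 and −1.18 along the chain in the authors' deposited table. The changed peaks had SEs of 0.24, 0.28 and 0.34 and adjusted p-values of 0.00186, 0.0262 and 0.0155 in the authors' deposited table. All 6 were on 1 side, yet changed peaks alternated with peaks nearer 0: the changed peak at 15.08 kb from the chain start was followed by an unchanged one at 16.22 kb.

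In the chain at chr15:69452334-69469117, over RPLP1, a protein of the ribosomal stalk, values were 0.32, −1.23, 0.29, −0.37, −2.01 and −1.23 in the authors' deposited table. The peak with the symbol RPLP1 (adjusted p = 0.559) and the peak with the symbol of the non-coding RNA DRAIC (adjusted p = 0.706) were not changed in the authors' deposited table. The peak at chr15:69467729-69468109, with −2.01 ± 0.42 (4.02-fold) and an adjusted p of 0.000159 in the authors' deposited table, carried no symbol. The changed peaks, at 4.97, 15.4 and 16.16 kb from the chain start, were thus all without a symbol.

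At chr20:31699198-31724006, over BCL2L1, which encodes the anti-apoptotic protein BCL-XL, values were 0.72, −0.97, −2.12, −0.70, −0.75 and 0.25 in the authors' deposited table. The third peak, −2.12 ± 0.49 (4.36-fold, adjusted p = 0.00109 in the authors' deposited table), had a low mean count of 36.64. Its BCL2L1 peak, 0.25 ± 0.23, was not changed (adjusted p = 0.718 in the authors' deposited table), while the peak of the non-coding RNA ABALON was. The 4 inner peaks were all negative and the outer 2 positive. This chain lies within 100 kb of ID1, a BMP-induced inhibitor of basic helix-loop-helix factors, whose own chain at chr20:31587564-31613205 had 1 of 7 peaks changed (−0.99 ± 0.29, adjusted p = 0.0175 in the authors' deposited table).

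Within MYH9, the heavy chain of non-muscle myosin IIA, the chain at chr22:36329184-36369188 had values of −0.70, 0.09, −0.30, −1.03, −1.20 and 0.17 in the authors' deposited table. Its first peak had a mean count of 473.2 and an SE of 0.18, which let a 1.63-fold difference pass with an adjusted p of 0.00516 in the authors' deposited table. None of its peaks carried a symbol. In 3 of the 4 Up side chains, then, changed peaks stood beside peaks of the opposite sign, so the chain as a whole had no common sign.

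**Figure D4:**
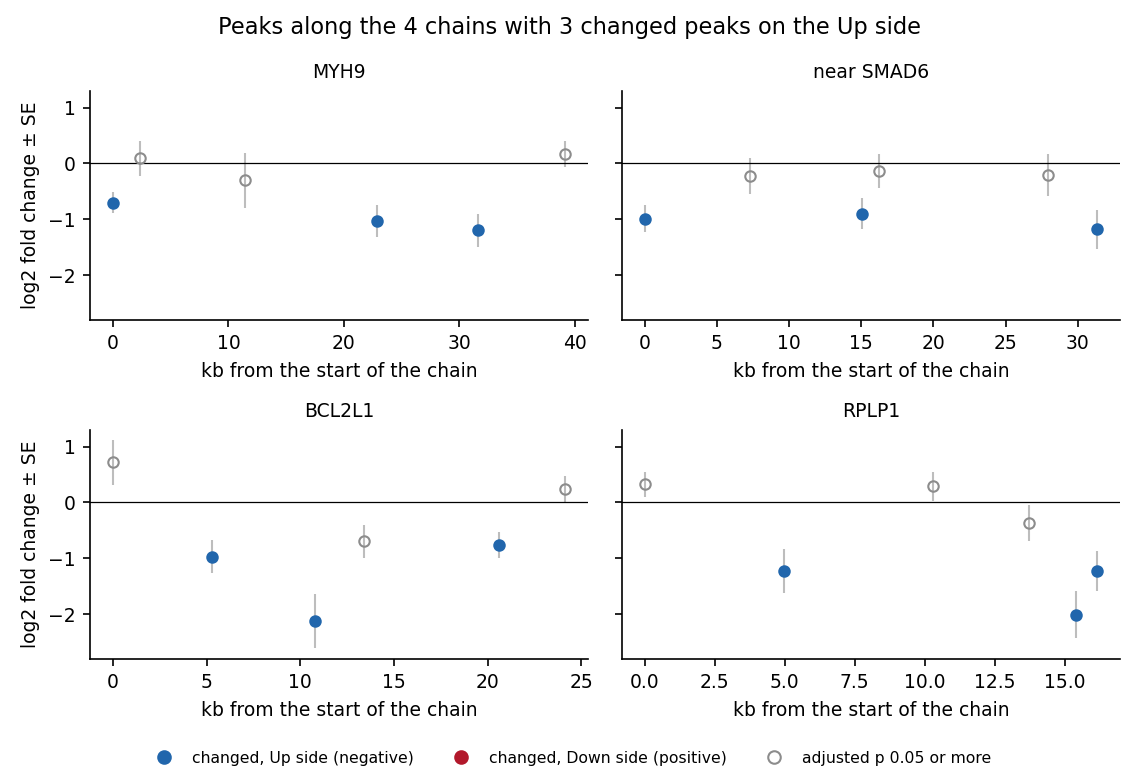
Log2 fold change ± SE (vertical axis) of each peak by its distance in kb from the start of the chain (horizontal axis) in the 4 chains with 3 changed peaks on the Up side. In each panel 3 filled Up side peaks stand among open ones, such as 0.17 at the end of the MYH9 chain and 0.72 at the start of the BCL2L1 chain.

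Of the 31 chains with a gene and 2 or more changed peaks, 15 had them on the Up side only, 5 on the Down side only and 11 on both. Over all chains 12 had changed peaks on both sides, and none had 2 or more changed peaks on each side. They are described here after their values were seen. Nearest to VEGFA, the vascular endothelial growth factor gene, at 140191 bp, the chain at chr6:43926678-43954084 had −1.5, 1.56, −1.65, 0.60, −0.44 and −0.15 in the authors' deposited table. Its first 3 peaks were all changed, with adjusted p-values of 1.85e-08, 0.00208 and 4.2e-07 in the authors' deposited table. A Down side peak at 6.76 kb thus stood between Up side peaks at the start and at 10.45 kb.

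Near PODXL, the sialomucin podocalyxin, the 12-peak chain at chr7:131586114-131655137 had changed peaks of −0.98, 1.51 and −0.73 in the authors' deposited table, again with the Down side peak between the others. In ARHGAP23, which encodes a GTPase-activating protein, the chain at chr17:38440983-38460717 had neighbours of 1.15 and 1.13 and a last peak of −1.28 in the authors' deposited table. The closest opposite peaks named here were in PLEKHA6, where peaks starting 2.06 kb apart had 1.32 ± 0.35 and −1.30 ± 0.40 (adjusted p = 0.00748 and 0.0252 in the authors' deposited table). The chain over HOXB1, the most 3′ gene of the HOXB cluster, held 1.0 and −0.93, at 3.67 and 12.26 kb from its start, in the authors' deposited table. Such a split was also present in RBM20, a splicing regulator of heart muscle, with 1.55 ± 0.49 and −1.08 ± 0.29 in the authors' deposited table. The others lay near CDC7, ABCA4, ITPR3, TNS3, RAB37 and TRIOBP.

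**Figure D5:**
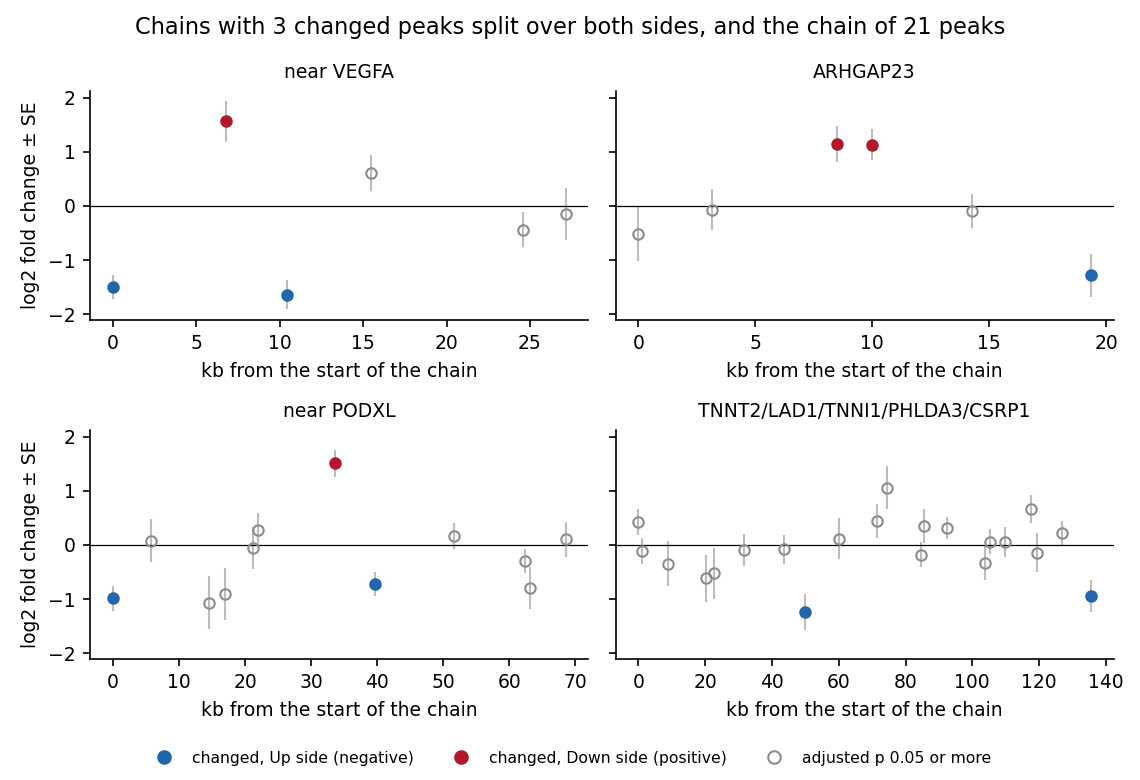
Log2 fold change ± SE (vertical axis) by distance in kb from the chain start (horizontal axis) in the 3 chains with 3 changed peaks split over both sides, near VEGFA, in ARHGAP23 and near PODXL, and in the 21-peak chain over TNNT2. Near VEGFA the peaks of −1.5, 1.56 and −1.65 follow each other; in the TNNT2 chain 2 of 21 points are filled, −1.24 and −0.94.

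Exactly 2 changed peaks, both on the Up side, were found in 12 chains, 11 of them near a gene, and both on the Down side in 5 chains, all near a gene. On the Up side, CGN, which encodes the tight junction protein cingulin, had 6 of 6 peaks negative, the first at −2.06 ± 0.42 (4.17-fold, adjusted p = 0.000132 in the authors' deposited table). Over the apolipoprotein genes APOA4, APOC3 and APOA1 a chain also had 6 of 6 negative, with the APOA1 peak at −0.81 ± 0.27 (adjusted p = 0.0491 in the authors' deposited table). In KRT15 and KRT19, keratins of epithelia, 8 of 9 peaks were negative and 2 changed. PIEZO1, a mechanically gated channel, held a peak of −1.62 ± 0.24 with an adjusted p of 2.85e-08 in the authors' deposited table. The chain over CDC27 and MYL4, the atrial essential myosin light chain, had −1.04 ± 0.30 and −1.21 ± 0.28 (adjusted p = 0.0142 and 0.00101 in the authors' deposited table), while its MYL4 symbol peak, 1.15 ± 0.47, was not changed.

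Down side chains of this size lay near HSPG2, PPFIA4, SWAP70, SOX6 and CORO7. Near SOX6, an SRY-related factor, the first 2 of 6 peaks had 1.49 ± 0.28 and 1.76 ± 0.40 (adjusted p = 1.96e-05 and 0.000729 in the authors' deposited table), and the rest ran from −0.41 to 0.44. HSPG2, the basement membrane proteoglycan perlecan, had 0.92 and 1.33 in the authors' deposited table among 13 peaks whose median was −0.13. In both chains the other peaks lay on either side of 0.

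Chains whose peaks all had the same sign numbered 27, 16 all negative and 11 all positive. In the chains with a gene the split was 16 all negative to 3 all positive, and most of these had at most 1 changed peak. Among the negative ones, picked here after their values were seen, were the chain at ANKRD1, a cardiac ankyrin repeat protein (median −0.63, 1 of 6 changed), at NKX2-6, an NK-family homeobox factor (median −0.66, 1 of 6 changed), at KIF12, a kinesin (median −0.69, none of 6 changed), and at IHH, the Indian hedgehog ligand (median −0.53, none of 6 changed). MICAL3 had the highest median of the all-positive chains with a gene, 0.52 with none of 8 changed. The median over chains with a gene was −0.03, so there was little common shift.

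The chains with the most peaks held at most 2 changed peaks each. This was not set apart from the background. In chains of 10 or more peaks with a gene, 4.74% of peaks were changed, with a 95% interval of 2.78% to 7.47%. That interval holds the 6.0% over all peaks. Among the chains with the most peaks, the 13-peak chain in HSPG2, described above, held 2 Down side peaks. The chain at chr1:201376481-201512486 runs over TNNT2, cardiac troponin T, LAD1, TNNI1, slow troponin I, PHLDA3 and CSRP1, a LIM-domain protein, and held 21 peaks with a median of −0.08. Its 2 changed peaks, −1.24 ± 0.34 and −0.94 ± 0.30 at the CSRP1 symbol, lay at 49.84 and 135.53 kb from its start, and the adjusted p-values were 0.00761 and 0.0341 in the authors' deposited table. The peak with the symbol TNNT2 was not among them. Of the 20 peaks over ALOXE3, HES7, PER1 and AURKB on chromosome 17 none was changed, nor any of the 14 over HES4 and AGRN, of the 14 over LMNA, the lamin A/C gene, or of the 13 around ITGA5, a fibronectin receptor subunit. The 15-peak chain over NOS3 and CDK5 held 1 Down side peak, the 14-peak chain in RAI1 1 Up side peak (−1.47 ± 0.39, adjusted p = 0.00556 in the authors' deposited table), and the 14-peak chain in MACF1, a cytoskeletal crosslinker, 2 Up side peaks. The HES4 and AGRN chain had 11 of 14 peaks negative and a median of −0.42 with none changed.

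By gene list, chains near signalling, epithelial and contractile genes held mostly Up side peaks among those changed, and chains near matrix genes held Down side peaks. For BMP, WNT, FGF, TGF-beta and Notch genes, 2 of 29 (SMAD6 and ID1) had a chain within 100 kb, and their 19 peaks held 7 Up and no Down side peaks (median −0.23). Of the 7, 3 lie in the chain near SMAD6 and 3 in the chain over BCL2L1, both described above for their Up side peaks, and 1 in the chain at ID1 itself. Among endoderm genes, the chain at SOX17 had 1 of 6 peaks changed (−1.77 ± 0.55, adjusted p = 0.0281 in the authors' deposited table), and the chain near GATA5, over LAMA5 and RPS21, had 1 of 7 (−1.25 ± 0.30, adjusted p = 0.0023 in the authors' deposited table). Epithelial junction and keratin genes had 4 of 10 (CLDN4, KRT8, KRT18 and KRT19), with 2 of 22 Up and none Down (median −0.30). Both Up side peaks lie in the chain over KRT15 and KRT19, described above after its values were seen. The other chains of this list held none. The background over all peaks was 2.36% Up and 3.64% Down with a median of 0.00, and these small lists were chosen with earlier results known, so nothing particular to them follows. Which cells the Up side peaks near endoderm and epithelial genes came from was not tested.

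Of 18 contractile genes 6 had a chain, in 4 chains with 42 peaks, of which 5 were Up and 1 Down (median −0.09). Of the 5, 2 lie in the chain over CDC27 and MYL4, described above after its values were seen. A further 2 lie in the chain over TNNT2, 1 of them at the symbol CSRP1, a gene not on this list. Among the 6 genes, MYH7, the beta-myosin heavy chain next to MYH6, had a chain of 6 peaks with a median of −0.76 and 1 changed. TNNI3, cardiac troponin I, shared its chain with TNNT1, DNAAF3 and SYT5, where 1 of 8 peaks was changed (0.83 ± 0.28, adjusted p = 0.0480 in the authors' deposited table). Of 16 cardiac transcription factor genes, GATA4 alone had a chain. Its 9 peaks, on chromosome 8, ran from −0.74 to 0.76 and none passed, the smallest adjusted p being 0.0995 in the authors' deposited table.

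Matrix genes had 2 of 12, HSPG2 and SPARC, with 3 of 21 peaks Down and none Up (median 0.09). SPARC, a secreted collagen-binding protein, held the highest Down side value among the chains named here with a gene, 1.94 ± 0.30 (3.83-fold, adjusted p = 1.12e-07 in the authors' deposited table), with 7 of its 8 peaks positive. Chains with a gene that are not named here held higher values, among them 3.31 (adjusted p = 1.54e-13 in the authors' deposited table). NOS3, of the endothelial list, had 2 chains with 1 Down side peak each among 24 peaks. The peak of 1.10 ± 0.33 in the first carried the NOS3 symbol (adjusted p = 0.0221 in the authors' deposited table). Chains near epicardial, primitive streak, pluripotency and AP-1 or TEAD genes, 1 gene each (PDGFRB, FGF8, DNMT3B and JUND), held no changed peak. The chain near LMOD1, of the smooth muscle list, is the one with the ELF3 promoter, with 1 of 12 Up, and the chain at NES, a neural progenitor filament, had 1 of 8 Down.

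Within chains, the share changed was lower among symbol-bearing peaks than among those without a symbol. In chains with a gene, 25 of 536 symbol-bearing peaks were changed (4.66%) and 168 of 2030 peaks without a symbol (8.28%); outside chains the shares were 2.03% and 6.96%. The median mean counts of both kinds in these chains were 96.7 and 60.9, so the kind with fewer changed peaks had the higher count. Of 255 chains with a gene that held both kinds, 83 had a changed peak without a symbol, and in 6 of these a symbol-bearing peak was changed too, in 5 on the same side. Across the 255 chains the medians of the 2 kinds had a Pearson correlation of 0.216 and a Spearman correlation of 0.248, a description over chains that share all libraries. These differences were not tested.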

How the data were processed

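ATAC-seq was done on day 6 progenitors with paired-end reads of 42 bp, per the labels. The submitters' processing notes name BWA, MACS2 and DESeq2 as tools and GRCh38 or hg38 as the build, without versions. Steps not given in the sources used here are Tn5 shifting, duplicate and multi-mapping filters and any pooling before peak calling. Each could change a peak's count, most of all in repeated sequence. Per the file headers, the deposited columns are a mean normalized count per peak (a signal the authors averaged over all libraries), a log2 fold change and SE, a Wald score, and a raw and an adjusted p-value. The deposited marking and gene symbols were used as given. No value per library was analysed here, so no test across libraries was run, and DESeq2 is named only as the authors' tool. Coordinates are those of the authors' deposited table; the count base of starts is not stated.

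Runs were formed with pandas 2.3.3 and numpy 2.4.6 (Python 3.11.15), correlations with scipy 1.17.1. The intraclass correlation came from one-way variance components with unequal chain sizes, tested on simulated data. Gene bodies and promoter windows came from RefSeq (GRCh38.p14), where 411 of 432 symbols of the chains were found. Chains, members and gene lists were chosen with earlier results of these data known. Named chains were those with the most peaks (9, with ties), those with 3 or more changed peaks all on 1 side, those with at least 2 on each side (0 found), and up to 2 per gene list, 35 in all; other chains named are said to be chosen after their values were seen. Chains of exactly 2 changed peaks and promoter peaks were also named after their values were seen. The counts of the endoderm list are not reported here.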

Additional observations from a re-analysis of the deposited data

How the results depend on the processing

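No paired analysis was possible because the deposited values are 1 comparison with no value per library; for the same reason no replicate could be left out. The larger side depended on the setting: of the changed chain peaks 118 were Up and 129 Down as reported, but 156 Up and 126 Down by the authors' marking, 117 Up and 101 Down without peaks near gene-free intervals, and 114 Up and 79 Down in chains with a gene. Their count, 247 as reported, was 26 with a joining gap of 5000 bp, 921 with 25000 bp, 664 with at least 4 peaks, 45 with at least 10 and 132 at an adjusted p under 0.01. The intraclass correlation, 0.177 as reported, was 0.589 and 0.0855 at those gaps, 0.322 with at least 10 peaks, 0.25 where the mean count reached the table's median, 0.116 with the median of peaks within 1 Mb subtracted (1 chain had none there and dropped out), 0.233 on the Wald score and 0.113 without peaks near gene-free intervals. In chains with a gene within 100 kb, a choice made after seeing the data, it was 0.0716, 0.0761 with the local median subtracted and 0.0717 on the Wald score. The share of same-side pairs, 92.9% as reported, was 98.8% and 78.7% at those gaps, 98.4% with at least 10 peaks, 96.5% and 87.0% at adjusted p under 0.01 and 0.1, 86.5% by the authors' marking, 87.1% without peaks near gene-free intervals and 69.8% in chains with a gene. Chains with 3 or more changed peaks on 1 side, 11 as reported, numbered 3 and 24 at those gaps, 25 and 3 with at least 4 and 10 peaks, 5 at an adjusted p under 0.01, 7 without peaks near gene-free intervals and 4 with a gene. The share of list genes near a chain, 14.2% as reported, was 0% and 44.8% at those gaps and 41.0% and 2.73% with at least 4 and 10 peaks. Of 35 named best peaks, 25 passed at an adjusted p under 0.05 and 15 under 0.01. The planned gap and length of a chain thus set how many chains there are, and the values with fewer or more chains differ by construction; the other causes were not tested. Depth per library is unknown, which limits all values to the authors' SE.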

Other observations

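The 64 runs of 6 or more peaks in which more than 50% of the peaks carried a symbol were left out by the rule. They had 14 of 533 peaks changed (2.63%, 9 Up and 5 Down) and an intraclass correlation of 0.0155. All chains had 9.30% and 0.177, and chains with a gene within 100 kb had 7.52% and 0.0716. The 95% interval of the 0.0155 ran from −0.0248 to 0.0766, which holds the 0.0716 of chains with a gene. The median mean count of the 64 runs was 90.5, against 68.9 in all chains. Autosomal peaks outside chains with no protein-coding gene within 100 kb had 9.35% changed, 2.57% Up and 6.77% Down, against 5.39% for those with a gene. The 4 chains far from genes other than the 7 Down side chains had 6 of 27 peaks changed, 4 Up and 2 Down, and all of their medians lay between −0.78 and 0.30.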
